A study of Mus musculus with 55 samples.

Results

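Synaptic stimulation of mature neurons for 180 min was measured in 5 RNA samples of the 55 in the series. They are the 2 samples labelled 4APBic at 3 h and the 3 basal samples labelled 0 min, all at 23 days in vitro (23DIV) in the maturation experiment. The members were taken by these labels alone, and the 15 min samples were not pooled with them. The maturation experiment had 28 samples and a second experiment, with other stimuli, had 27.

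All 5 samples were primary neurons from cortex and hippocampus of CD1 mouse embryos of mixed sex, with no transgene or knockout. The treated neurons received 50 μM bicuculline, which blocks GABA-A receptors, together with 2.5 mM 4-aminopyridine, which blocks voltage-gated potassium channels, for 180 min in their own medium. The treatment label of these samples names bicuculline only, and 4-aminopyridine comes from the titles and the methods. Basal neurons were handled alike without drug, and none had been silenced beforehand. No basal sample of the series carries a 180 min label, so untreated neurons labelled with the same time were not available. In each comparison with basal, time since handling was therefore not tested apart from the stimulus. The labels give 23DIV, while the study groups neurons used between 19 and 23DIV as 21DIV. The treated samples are numbered 2 and 3 and the basal samples 1, 2 and 3. The descriptions carry different letter codes for the treated and the basal samples. What the codes mean is not given in the sources used here, and what they stand for cannot be told apart from the treatment. The sources call the samples experimental replicates without saying whether they were separate cultures or embryos. The p-values therefore measure only the spread between samples of the same group, which may be technical. This spread was estimated over all 28 samples of the maturation experiment, other conditions included, and not from these 5 samples alone.

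Excitatory activity opens NMDA receptors and voltage-gated calcium channels, and the calcium that enters drives kinases that act on CREB, SRF and MEF2 at the promoters of immediate-early genes. Many of these genes encode transcription factors such as Fos and Npas4, which in turn switch on effector genes that act at synapses, in secretion and in survival. Bicuculline removes inhibition from the network, and 4-aminopyridine prolongs action potentials and increases transmitter release. Mature cultures have many synapses through which such a stimulus can act.

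Libraries were made from the 3′ ends of transcripts by CEL-Seq2, and the counts on genes were 5676665, 5578041 and 9254444 in basal replicates 1, 2 and 3, and 5389766 and 3689561 in treated replicates 2 and 3. Levels are given as CPM, which are counts divided by library size after scaling with edgeR's TMM factors. In pairs of samples, the log2 CPM correlated with r between 0.960 and 0.978 within basal, 0.967 within treated and between 0.912 and 0.948 across the groups. Basal replicate 1 was the basal sample nearest to both treated samples. Replicates differed by more than counting noise, and the chi-square of their counts divided by its degrees of freedom was at least 8.4 in each pair. Each test below is the quasi-likelihood test of edgeR, and p-values were adjusted by Benjamini-Hochberg over all 11746 genes tested (edgeR adjusted p). A gene is called a differentially expressed gene (DEG) when this value is below 0.05 and its level differs by 1.5-fold or more, and "rose" and "fell" are used of DEG only. Log2 fold changes are the fitted differences in level, treated minus basal.

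After 180 min, 868 genes rose and 804 fell, so that 14.2% of the tested genes were DEG, 7.39% upward and 6.84% downward. These shares are the background for the counts of rises and falls in each gene list below. The median log2 fold change of all tested genes was -0.02. Both treated samples lay above all 3 basal samples in 23.2% of the tested genes and below them in 24.1%, which is the background for every statement on groups that did not overlap. The share of DEG that rose was 51.9%. Leaving out 1 sample moved the number of DEG from 1672 to 1991 without basal replicate 1, 1079 without basal replicate 2, 1095 without basal replicate 3, 674 without treated replicate 2 and 1254 without treated replicate 3.

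**Figure D1:**
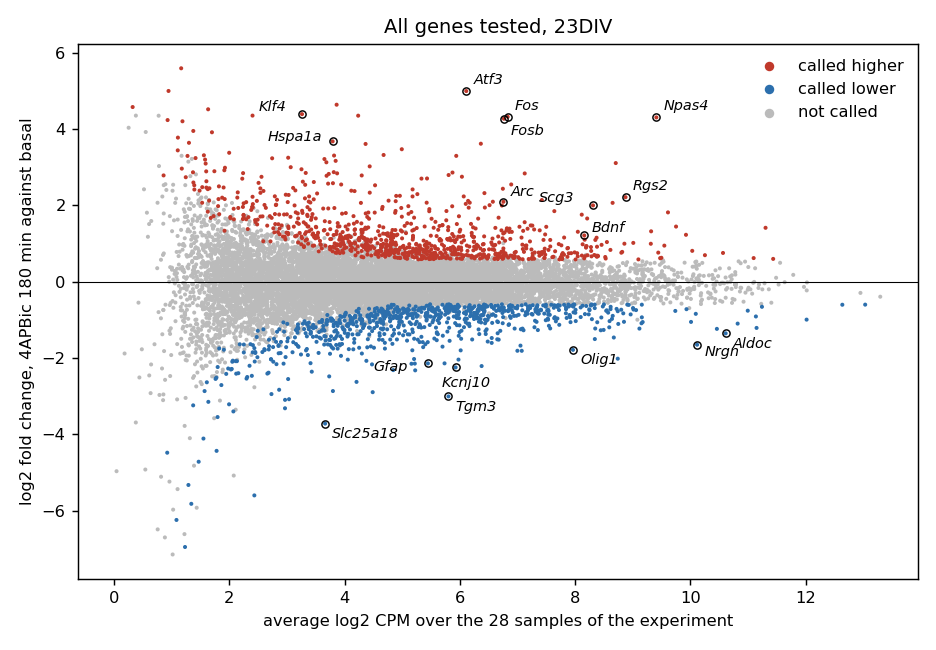
Log2 fold change of 4APBic at 180 min against basal (y axis) by the average log2 CPM over the 28 samples of the maturation experiment (x axis), 1 point per tested gene. Red points are the 868 genes that rose, blue points the 804 that fell and grey points the genes that were no DEG. Circles mark 17 genes by name, with Atf3 the highest and Slc25a18 the lowest of them.

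Most transcription factors of the immediate-early class rose. Of 31 listed, 30 were in the file and 27 were tested, of which 21 rose, 2 fell and 4 were no DEG. The 4APBic response left the list at a median log2 fold change of 1.95, against -0.02 for all genes. Their summed level was 1056 to 1307 CPM in the basal samples and 6605 and 7706 CPM in the treated samples.

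Atf3, a stress-induced bZIP factor (chr1:191170296-191183333; coordinates here and below are of GRCm38.p6), had 25.8, 5.54 and 14.9 CPM in the 3 basal samples and 562 and 427 CPM in the 2 treated samples. The groups were far apart, and its log2 fold change of 5.00 ± 0.57 (SE; edgeR adjusted p = 5.02e-07) was the largest rise among genes with an average log2 CPM of 3 or more. Klf4, a Krüppel-like zinc finger factor (chr4:55527137-55532475), had 2.07, 0.894 and 0.221 CPM in basal and 25.6 and 16.5 CPM in treated samples. Its log2 fold change was 4.40 ± 0.57 (SE; edgeR adjusted p = 3.56e-06), from a basal level of only 12, 5 and 2 counts. Both Atf3 and Klf4 had their highest basal value in replicate 1.

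Fos, the founding AP-1 subunit (chr12:85473890-85477274), had 21.6, 11.3 and 12.1 CPM in basal and 309.7 and 287 CPM in treated samples, a log2 fold change of 4.33 ± 0.31 (SE; edgeR adjusted p = 1.69e-10). Fosb (chr7:19302696-19310118), which pairs with Jun proteins in AP-1, had 13.8, 9.66 and 13.9 CPM in basal and 275 and 212 CPM in treated samples and a log2 fold change of 4.28 ± 0.40 (SE; edgeR adjusted p = 3.22e-08). Junb (chr8:84976909-84978748), an AP-1 partner of Fos, had 26.1, 14.7 and 25.1 CPM in basal and 299.7 and 244 CPM in treated samples and a log2 fold change of 3.62 ± 0.24 (SE; edgeR adjusted p = 1.79e-11). The 3 AP-1 genes were all more than 10 times higher in each treated sample than the basal mean. Npas4, a neuronal bHLH-PAS factor that calcium entry induces (chr19:4984353-5003439), had 106, 63.3 and 177 CPM in basal and 2259 and 2348 CPM in treated samples. The log2 fold change of Npas4 was 4.31 ± 0.35 (SE; edgeR adjusted p = 1.42e-09), and its treated values lay close together while the basal values spread widely.

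Nuclear receptors and EGR factors were also among the rises. Nr4a2, an orphan nuclear receptor, had 7.26, 6.26 and 8.41 CPM in basal and 83.1 and 62.7 CPM in treated samples (log2 fold change 3.30 ± 0.32 (SE; edgeR adjusted p = 4.51e-08)). Nr4a1, of the same family, had 27.3, 30.6 and 37.1 CPM in basal and 133 and 112 CPM in treated samples (log2 fold change 1.94 ± 0.28 (SE; edgeR adjusted p = 2.47e-05)). Egr1, a zinc finger factor widely used as an activity marker, had 51.2, 48.6 and 55.7 CPM in basal and 273 and 125 CPM in treated samples (log2 fold change 1.95 ± 0.23 (SE; edgeR adjusted p = 1.25e-06)). Treated replicate 2 held the higher Egr1 value, and it was the treated pair, not the basal samples, that spread for this gene.

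Srf and Klf10 fell. Srf, the serum response factor that itself drives immediate-early promoters (chr17:46546838-46558267), had 92.8, 136 and 141 CPM in basal and 78.8 and 33.6 CPM in treated samples, a log2 fold change of -1.11 ± 0.30 (SE; edgeR adjusted p = 0.0103). Klf10, a Krüppel-like repressor, had 33.02, 30.04 and 28.7 CPM in basal and 11.97 and 14.6 CPM in treated samples (log2 fold change -1.20 ± 0.39 (SE; edgeR adjusted p = 0.0314)). The Klf10 groups did not overlap, but the call was lost whichever of the 5 samples was left out.

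**Figure D2:**
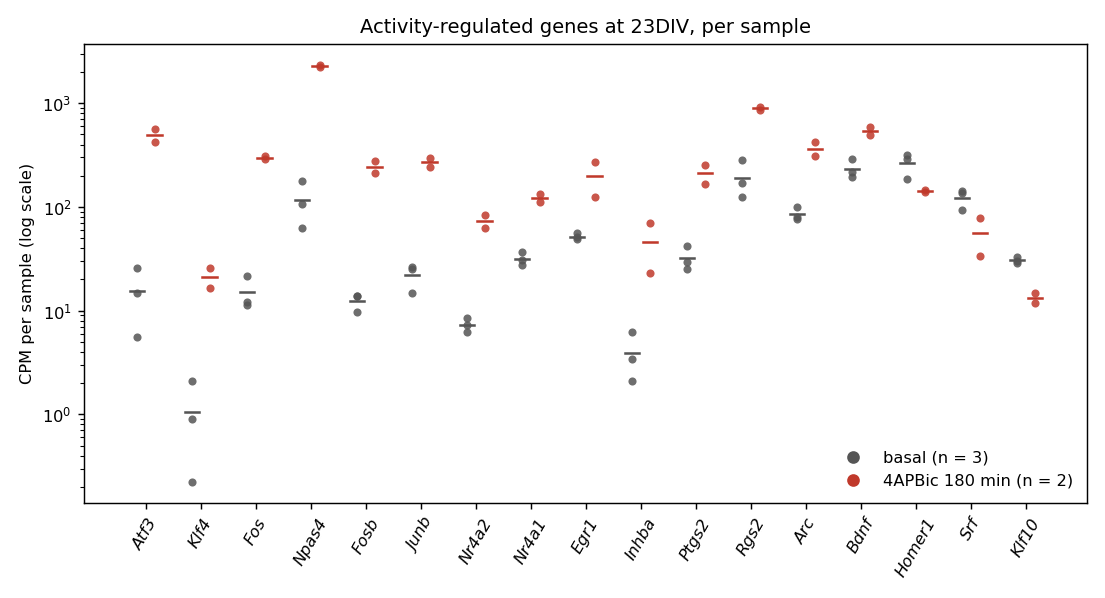
CPM per sample (y axis, log scale) of 17 activity-regulated genes (x axis), with grey points for the 3 basal samples, red points for the 2 samples at 180 min of 4APBic and bars for the means. The groups do not overlap in any of the 17 genes, of which Homer1, Srf and Klf10 were lower in treated samples and the other 14 higher.

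Promoters of these genes are shown because members that rose together can be compared letter by letter. RefSeq promoter windows on GRCm38.p6, from 250 bases before to 50 bases after a start, matched 9379 of the 11746 tested genes, and the most upstream of the starts in that table was used for each gene. For Npas4 and Fosb this start lies inside the gene's span given above, which reaches further upstream. The 6 transcription factors with the largest rises are printed 5′ to 3′ in the direction of transcription. Capitals mark TGACG, the half-site of the cyclic AMP response element (CRE), and GCGNGGGCG, the site that EGR factors recognise, on either strand.

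Atf3 (chr1:191183284-191183583, minus strand): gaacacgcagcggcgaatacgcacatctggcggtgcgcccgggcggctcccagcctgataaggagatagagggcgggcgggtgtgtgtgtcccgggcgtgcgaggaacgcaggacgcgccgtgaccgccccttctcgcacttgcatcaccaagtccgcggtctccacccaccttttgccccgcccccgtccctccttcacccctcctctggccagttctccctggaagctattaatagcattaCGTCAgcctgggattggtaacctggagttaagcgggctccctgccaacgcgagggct
Klf4 (chr4:55532426-55532725, minus strand): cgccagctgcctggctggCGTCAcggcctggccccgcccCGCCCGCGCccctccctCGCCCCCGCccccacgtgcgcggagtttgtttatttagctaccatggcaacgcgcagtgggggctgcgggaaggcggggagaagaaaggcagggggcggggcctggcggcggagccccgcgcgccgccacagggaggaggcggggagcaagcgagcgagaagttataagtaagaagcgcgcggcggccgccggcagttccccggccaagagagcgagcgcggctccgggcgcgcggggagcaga
Fos (chr12:85473640-85473939, plus strand): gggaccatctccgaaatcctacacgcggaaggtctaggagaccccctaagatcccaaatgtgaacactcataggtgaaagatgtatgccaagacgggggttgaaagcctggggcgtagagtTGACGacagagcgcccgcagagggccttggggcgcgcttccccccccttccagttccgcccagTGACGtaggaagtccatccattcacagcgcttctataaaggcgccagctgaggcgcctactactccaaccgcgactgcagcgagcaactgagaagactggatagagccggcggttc
Npas4 (chr19:4989922-4990221, minus strand): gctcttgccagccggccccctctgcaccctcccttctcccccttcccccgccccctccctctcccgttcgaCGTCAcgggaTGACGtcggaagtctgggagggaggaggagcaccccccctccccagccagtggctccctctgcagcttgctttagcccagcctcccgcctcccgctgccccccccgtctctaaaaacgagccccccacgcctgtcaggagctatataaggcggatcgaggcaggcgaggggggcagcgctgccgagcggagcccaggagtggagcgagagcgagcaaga
Fosb (chr7:19309996-19310295, minus strand): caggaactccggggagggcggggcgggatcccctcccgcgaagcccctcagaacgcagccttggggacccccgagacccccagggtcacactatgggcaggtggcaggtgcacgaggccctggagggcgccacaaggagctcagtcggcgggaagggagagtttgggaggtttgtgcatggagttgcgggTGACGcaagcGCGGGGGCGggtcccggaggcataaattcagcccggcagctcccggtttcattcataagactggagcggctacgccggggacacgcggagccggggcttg
Junb (chr8:84978699-84978998, minus strand): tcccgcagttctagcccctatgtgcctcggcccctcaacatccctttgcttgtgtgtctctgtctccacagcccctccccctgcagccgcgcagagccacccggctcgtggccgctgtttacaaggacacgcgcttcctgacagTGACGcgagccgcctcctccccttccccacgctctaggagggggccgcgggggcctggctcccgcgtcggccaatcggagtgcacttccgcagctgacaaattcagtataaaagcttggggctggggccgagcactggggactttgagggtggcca

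Each of the 6 windows held at least 1 half-site, with 2 in Fos and 2 in Npas4, and EGR sites lay in Klf4 (2) and Fosb (1). The half-site was picked after these promoters had been read, so its counts are a description only. It was present in 64.7% of the windows of the 17 immediate-early transcription factors that rose and had a promoter, in 37.7% of all genes that rose, in 24.1% of those that fell, in 33.2% of all tested genes and in 20.9% of all 27025 windows in the table. The full CRE, TGACGTCA, contains the half-site on each strand and was in 0 of the 17, in 4.67% of genes that rose, in 1.28% of those that fell and in 3.56% of all tested genes. The EGR site was in 35.3% of the 17 and in 11.8%, 15.5% and 11.4% of the same 3 sets. The AP-1 site TGANTCA was in 4.53% of genes that rose, 3.03% of those that fell and 4.28% of all tested genes. The CArG box, which SRF binds, was in 2.04%, 0.957% and 1.28%, the MEF2 site in 0.876%, 0.797% and 0.405%, the ATF4 site TGATGNAAT in 0.876%, 0.478% and 0.426%, and the heat shock element in 0%, 0.478% and 0.395%. Over all 27025 windows the shares were 1.85% for the CRE, 5.53% for the EGR site, 7.92% for the AP-1 site, 1.59% for the CArG box, 0.570% for the MEF2 site, 0.973% for the ATF4 site and 0.540% for the heat shock element. Of the 17 immediate-early windows, 11.8% held a MEF2 site, and 0% an AP-1 site, CArG box, ATF4 site or heat shock element. The MEF2 match in the Atf3 window is left in lower case above. All motifs were searched on both strands. A match of letters is not a bound site, and a window without a match says nothing about sites elsewhere.

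Effector genes of activity rose in part. Of 29 tested, 15 rose and 1 fell, with a median log2 fold change of 0.86. Inhba, the activin beta A subunit (chr13:16004256-16031609), had 6.22, 3.40 and 2.10 CPM in basal and 69.3 and 23.1 CPM in treated samples and a log2 fold change of 3.61 ± 0.64 (SE; edgeR adjusted p = 2.33e-04), with treated replicate 2 well above replicate 3. Ptgs2, the inducible cyclooxygenase (chr1:150100031-150108234), had 25.2, 29.7 and 41.6 CPM in basal and 255 and 167 CPM in treated samples, a log2 fold change of 2.71 ± 0.40 (SE; edgeR adjusted p = 2.44e-05). Rgs2, a brake on G protein signalling, had 283, 124 and 168 CPM in basal and 852 and 929.7 CPM in treated samples, a log2 fold change of 2.22 ± 0.25 (SE; edgeR adjusted p = 5.02e-07). None of these groups overlapped.

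Arc, which regulates AMPA receptor traffic at synapses (chr15:74669081-74672570), had 75.7, 80.7 and 98.8 CPM in basal and 421 and 308 CPM in treated samples, and its log2 fold change was 2.10 ± 0.35 (SE; edgeR adjusted p = 1.31e-04). Bdnf, a neurotrophin (chr2:109674700-109727043), had 290.5, 193 and 216 CPM in basal and 497 and 585 CPM in treated samples, with a log2 fold change of 1.21 ± 0.25 (SE; edgeR adjusted p = 9.52e-04). The exception was Homer1, a scaffold of metabotropic glutamate receptors (chr13:93303757-93405129), which had 188, 317 and 289 CPM in basal and 138 and 146 CPM in treated samples and fell by 0.90 on the log2 scale (SE 0.21; edgeR adjusted p = 0.00351).

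The activity-induced product of Homer1 is a short form that ends within the gene, so the forms were examined apart. The short form encodes 186 amino acids and spans chr13:93304495-93360462, so that it ends before the 3′ ends of the long forms. It had 9, 6 and 8 counts in the basal samples and 10 and 3 counts in the treated samples. These were too few to pass the filter, so a change of the short form was not tested. The reason for its low counts was not tested either. The 3 long forms, of 354, 366 and 370 amino acids, had nearly the same counts as each other, with between 1082 and 1085, 1771, and between 2611 and 2613 in the basal samples and 749 and between 538 and 540 in the treated samples. When transcript ends were fitted in place of genes, their log2 fold change was -0.85 ± 0.21 (SE; edgeR adjusted p = 0.0046). The value for Homer1 therefore describes its long forms.

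Regulators of signalling, many of them feedback inhibitors, rose in part. Of 27 tested, 11 rose and 2 fell, with a median log2 fold change of 0.59. Sik1, a kinase that restrains the CREB coactivators CRTC, had 0.346, 0.894 and 1.44 CPM in basal and 7.92 and 7.32 CPM in treated samples, a log2 fold change of 2.99 ± 0.80 (SE; edgeR adjusted p = 0.0101). Dusp1 and Dusp4, phosphatases of MAP kinases, rose by log2 fold changes of 2.75 ± 0.31 and 2.55 ± 0.44 (SE; edgeR adjusted p = 4.22e-07 and 1.57e-04). Pim1, a serine/threonine kinase, had 18.7, 8.05 and 15.9 CPM in basal and 95.2 and 69.7 CPM in treated samples and a log2 fold change of 2.53 ± 0.51 (SE; edgeR adjusted p = 8.95e-04). Socs2, a suppressor of cytokine signalling, and Nab2, a corepressor of EGR factors, fell, with log2 fold changes of -1.44 ± 0.21 and -0.99 ± 0.32 (SE; edgeR adjusted p = 2.25e-05 and 0.0306).

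Among regulators of CREB, 1 of 23 tested rose and 5 fell, with a median log2 fold change of -0.21. Creb1 had 26.97, 30.9 and 31.4 CPM in basal and 15.1 and 18.99 CPM in treated samples, a log2 fold change of -0.81 ± 0.21 (SE; edgeR adjusted p = 0.00744). Crtc1 and Crtc3, coactivators of CREB, fell by 1.11 and 1.08 on the log2 scale (edgeR adjusted p = 0.0153 and 0.0471), and Camkk2, a calcium-activated kinase upstream of CaMK4, fell by 1.15 (edgeR adjusted p = 1.31e-04). Sik2 rose, with a log2 fold change of 0.98 ± 0.29 (SE; edgeR adjusted p = 0.0195). The falls numbered 3 without treated replicate 2, treated replicate 3 or basal replicate 3, and the rise was lost without treated replicate 2 or basal replicate 3.

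Genes on both sides of the control of cell death rose. Of 9 genes known as activity-regulated inhibitors of death, 9 were tested and 7 rose, with a median log2 fold change of 2.30, and the number of rises was 7 under every alternative setting and with each sample left out. The 7 include Atf3, Npas4 and Nr4a1, which are also counted among the transcription factors, and Inhba, which is also counted among the effector genes. Btg2, Gadd45b and Gadd45g of this list are also counted among the regulators of signalling, so this list largely repeats genes of the lists above. Gadd45g, a regulator of the response to DNA damage, had 54.1, 30.8 and 40.9 CPM in basal and 212 and 243 CPM in treated samples, a log2 fold change of 2.44 ± 0.36 (SE; edgeR adjusted p = 3.14e-05). The summed level of the 9 genes was 169.5 to 308 CPM in basal and 3286 and 3377 CPM in treated samples. Most of the treated sum was Npas4, with 2259 CPM in replicate 2 and 2348 CPM in replicate 3.

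Of 20 tested pro-apoptotic genes and targets of p53, 7 rose, with a median of 0.12. Pmaip1, which encodes the BH3 protein NOXA, had 9.34, 5.19 and 2.43 CPM in basal and 21.9 and 24.96 CPM in treated samples, a log2 fold change of 2.08 ± 0.43 (SE; edgeR adjusted p = 0.00109). Bcl2l11, which encodes the BH3 protein BIM, had 8.99, 10.4 and 7.19 CPM in basal and 39.6 and 26.9 CPM in treated samples, a log2 fold change of 1.92 ± 0.34 (SE; edgeR adjusted p = 2.21e-04). Cdkn1a, the cell cycle inhibitor p21, had 249.8, 101 and 141 CPM in basal and 579 and 529.8 CPM in treated samples, a log2 fold change of 1.76 ± 0.29 (SE; edgeR adjusted p = 8.91e-05). Txnip, an inhibitor of thioredoxin, had a log2 fold change of 2.12 ± 0.62 (SE; edgeR adjusted p = 0.0186), and its call held in 1 of 5 runs with a sample left out.

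Genes of 2 stress pathways of protein synthesis and folding were also among the rises. Genes that ATF4 activates when amino acids are short had 16 rises and 1 fall among 32 tested and a median of 0.64. Sesn2, an inhibitor of mTORC1 signalling, had 1.38, 0.537 and 0.664 CPM in basal and 3.68 and 7.87 CPM in treated samples, a log2 fold change of 2.70 ± 0.63 (SE; edgeR adjusted p = 0.00343). Ddit3, the factor CHOP, had 32.5, 15.6 and 18.6 CPM in basal and 102 and 72.97 CPM in treated samples, a log2 fold change of 1.98 ± 0.32 (SE; edgeR adjusted p = 7.79e-05). Ppp1r15a, which restores translation under stress, and Cebpb, a bZIP factor, rose by log2 fold changes of 1.56 ± 0.22 and 1.5 ± 0.30 (SE; edgeR adjusted p = 1.01e-05 and 9.44e-04). Atf5 was the member that fell, at -0.61 ± 0.21 (SE; edgeR adjusted p = 0.0466), and its call was lost in 11 of 16 alternative runs. Atf4 itself was no DEG, at a log2 fold change of 0.48 ± 0.16 (SE; edgeR adjusted p = 0.0334). The 16 rises became 8 without treated replicate 2, 10 without basal replicate 2 and 11 without treated replicate 3.

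Of 23 genes of endoplasmic reticulum stress, 10 rose, with a median of 0.45. Hspa5, the chaperone BiP, had 250.2, 206 and 181 CPM in basal and 585 and 321 CPM in treated samples, a log2 fold change of 1.10 ± 0.22 (SE; edgeR adjusted p = 0.00103). Derl3, a factor of protein degradation from the reticulum, had 7.61, 0.358 and 3.98 CPM in basal and 32.1 and 21.97 CPM in treated samples, a log2 fold change of 2.75 ± 0.68 (SE; edgeR adjusted p = 0.00551). Ero1a, an oxidase that forms disulphide bonds, and Atf6, a sensor of unfolded protein, rose by log2 fold changes of 1.54 ± 0.29 and 0.98 ± 0.28 (SE; edgeR adjusted p = 5.08e-04 and 0.0146). The rises numbered 2 without treated replicate 2 and 6 without basal replicate 2.

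Of 21 heat shock chaperones, 7 rose and 1 fell, with a median of 0.28. Hspa1a, an inducible HSP70 (chr17:34969359-34972156), had 2.59, 2.68 and 2.99 CPM in basal and 35 and 36.9 CPM in treated samples, a log2 fold change of 3.68 ± 0.41 (SE; edgeR adjusted p = 4.22e-07). Hspa1b rose by 1.98 ± 0.22 (SE; edgeR adjusted p = 3.98e-07), but Hspa1a and Hspa1b are near-identical and the split of reads between them is uncertain. Dnajb1 and Dnaja4, cochaperones of HSP70, rose by log2 fold changes of 1.31 ± 0.21 and 1.24 ± 0.22 (SE; edgeR adjusted p = 6.43e-05 and 2.21e-04). Cryab, a small chaperone found in glia, was the member that fell, at -0.96 ± 0.30 (SE; edgeR adjusted p = 0.027), and its call was lost in 4 of 5 runs with a sample left out.

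Genes of glucose use and of the response to low oxygen rose in part. Of 30 tested, 12 rose, with a median log2 fold change of 0.57. Adm, the peptide adrenomedullin (chr7:110627657-110629820), had 26.1, 4.47 and 6.64 CPM in basal and 136 and 136 CPM in treated samples, a log2 fold change of 3.47 ± 0.43 (SE; edgeR adjusted p = 2.09e-06), with basal replicate 1 above the other basal samples. Hk2, a hexokinase that starts glycolysis (chr6:82725025-82774454), had 5.88, 3.22 and 4.65 CPM in basal and 36.8 and 34.5 CPM in treated samples, a log2 fold change of 2.95 ± 0.41 (SE; edgeR adjusted p = 1.01e-05). Slc2a3, the neuronal glucose transporter GLUT3, had 277, 172 and 230.4 CPM in basal and 808 and 622 CPM in treated samples, a log2 fold change of 1.66 ± 0.20 (SE; edgeR adjusted p = 9.95e-07). Pfkfb3, whose product stimulates glycolysis, rose by a log2 fold change of 1.70 ± 0.28 (SE; edgeR adjusted p = 8.03e-05). The 12 rises became 7 without basal replicate 2 and 8 without treated replicate 3.

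Nuclear genes of oxidative phosphorylation gave 0 DEG among 71 tested by edgeR and 0 by DESeq2, with 6 higher and 8 lower at an unadjusted edgeR p under 0.05. Their median was -0.03, with single values between -0.52 (Ndufb2) and 1.07 (Atp5l). Of 20 antioxidant genes, 1 fell, with a median of 0.20. The member that fell was Keap1, which targets the factor NRF2 for degradation (log2 fold change -0.67 ± 0.18 (SE; edgeR adjusted p = 0.0121)).

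Of 23 tested genes for neuropeptides and secretory granule proteins, 9 rose and 1 fell, with a median log2 fold change of 0.51. Scg3, a granin that sorts cargo into dense-core vesicles (chr9:75643366-75685959), had 344, 144 and 138 CPM in basal and 739 and 931 CPM in treated samples, a log2 fold change of 2.00 ± 0.27 (SE; edgeR adjusted p = 8.29e-06). Adcyap1, the peptide PACAP (chr17:93198245-93206541), had 54.8, 27 and 30.4 CPM in basal and 148 and 167 CPM in treated samples, a log2 fold change of 2.07 ± 0.33 (SE; edgeR adjusted p = 6.60e-05). Cartpt, the CART peptide, and Nppc, the C-type natriuretic peptide, rose by log2 fold changes of 1.94 ± 0.41 and 1.93 ± 0.39 (SE; edgeR adjusted p = 0.00144 and 8.41e-04). Pcsk2, a protease that processes peptide precursors, fell by 0.74 on the log2 scale (SE 0.17; edgeR adjusted p = 0.00278). The interneuron peptides Sst and Vip were no DEG, with log2 fold changes of 0.25 ± 0.13 and -0.57 ± 0.39 (SE).

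Potassium channel genes fell in part. Of 49 tested, 11 fell, with a median of -0.31. Kcnj10, the inward rectifier Kir4.1 found mainly in glia (chr1:172341210-172374085), had 88.3, 205 and 137 CPM in basal and 14.7 and 47.2 CPM in treated samples, a log2 fold change of -2.24 ± 0.44 (SE; edgeR adjusted p = 7.00e-04). Kcnh3, a neuronal ether-a-go-go channel (chr15:99224517-99242818), had 58.1, 65.99 and 70.04 CPM in basal and 11.4 and 18.2 CPM in treated samples, a log2 fold change of -2.15 ± 0.32 (SE; edgeR adjusted p = 2.57e-05). Kcnip2, a subunit that assists A-type Kv4 channels, had 107, 183 and 179 CPM in basal and 35 and 41.5 CPM in treated samples, a log2 fold change of -2.04 ± 0.35 (SE; edgeR adjusted p = 1.37e-04). Kcnk9, a leak channel, fell by 1.77 on the log2 scale (SE 0.39; edgeR adjusted p = 0.00197). The count of falls was 6 without treated replicate 2 and between 10 and 13 with each of the other samples left out.

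Postsynaptic genes fell in part as well. Of 38 genes of the postsynaptic density, 13 fell, with a median of -0.39. Nrgn, neurogranin, which binds calmodulin (chr9:37544493-37552745), had 1563, 3028 and 3629.9 CPM in basal and 819 and 929 CPM in treated samples, a log2 fold change of -1.65 ± 0.29 (SE; edgeR adjusted p = 2.12e-04). Synpo, an actin-binding protein of the spine apparatus (chr18:60593981-60660173), had 23.2, 37.6 and 37.95 CPM in basal and 8.11 and 9.77 CPM in treated samples, a log2 fold change of -1.89 ± 0.34 (SE; edgeR adjusted p = 2.65e-04). Camk4, a calcium-dependent kinase, and Dlgap3, a scaffold that joins PSD-95 to Shank, fell by 1.51 and 1.35 on the log2 scale (SE 0.22 and 0.22; edgeR adjusted p = 2.46e-05 and 6.99e-05). For Nrgn, Synpo, Camk4 and Dlgap3 both treated samples lay below all basal samples. The summed level of the list was 7992 to 11714 CPM in basal and 5826 and 7008 CPM in treated samples. Without treated replicate 2, 6 of the list fell.

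Of 21 glutamate receptor genes, 3 fell, with a median of -0.32. The falls were Grin3a, an NMDA receptor subunit (log2 fold change -1.49 ± 0.26 (SE; edgeR adjusted p = 1.89e-04)), Grm7, a presynaptic metabotropic receptor (-1.38 ± 0.24 (SE; edgeR adjusted p = 2.21e-04)), and Grik2, a kainate receptor subunit (-0.95 ± 0.21 (SE; edgeR adjusted p = 0.00256)). With counts summed over its transcripts Grm7 had a log2 fold change of 0.21, the opposite sign, and some of its other ends rose, as described below. The falls were 14.3% of the 21, above the 6.84% of all tested genes, though 3 genes are few. In 11 of the 21 both treated samples lay below all basal samples, against 24.1% of all tested genes. A positive log2 fold change was seen in 3 of the 21. The main AMPA and NMDA receptor subunits were no DEG: Gria1 had -0.29 ± 0.15, Gria2 -0.01 ± 0.17, Grin1 0.41 ± 0.17 and Grin2b -0.07 ± 0.38 on the log2 scale (SE).

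Of 22 genes of GABA synapses, 1 rose and 3 fell, which is near the background of 14.2% DEG for so short a list, with a median of 0.00. Gabra5, a subunit of the receptor that bicuculline blocks (chr7:57407669-57591016), had 262, 421 and 394 CPM in basal and 148 and 151 CPM in treated samples, a log2 fold change of -1.26 ± 0.20 (SE; edgeR adjusted p = 6.60e-05). Gabra4, another subunit, fell by 0.72 on the log2 scale (SE 0.21; edgeR adjusted p = 0.0192). Gad1 and Gad2, which make GABA, were no DEG, at -0.09 ± 0.18 and 0.21 ± 0.16 (SE).

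Among 30 sodium and calcium channel genes, 1 rose and 2 fell, also near the background, with a median of -0.09. The rise was Hcn3, a hyperpolarization-activated channel (log2 fold change 1.36 ± 0.24 (SE; edgeR adjusted p = 1.80e-04)), and the falls were Cacnb3 (-0.94 ± 0.20 (SE; edgeR adjusted p = 0.00198)) and Cacna1a (-0.67 ± 0.18 (SE; edgeR adjusted p = 0.00925)), subunits of voltage-gated calcium channels. Among 37 genes of presynaptic release, 4 rose and 4 fell, with a median of -0.16. Syt4, a synaptotagmin of dense-core vesicles, had 350.3, 263 and 266 CPM in basal and 777 and 689 CPM in treated samples, a log2 fold change of 1.32 ± 0.20 (SE; edgeR adjusted p = 4.34e-05). The vesicular glutamate transporters moved apart, with Slc17a6 (VGLUT2) at 1.19 ± 0.21 (SE; edgeR adjusted p = 2.21e-04) and Slc17a7 (VGLUT1) at -0.76 ± 0.22 (SE; edgeR adjusted p = 0.0193), the latter call holding in 1 of 5 runs with a sample left out. Cplx2, complexin, had 779, 1189 and 1098 CPM in basal and 433 and 440.01 CPM in treated samples, a log2 fold change of -1.23 ± 0.17 (SE; edgeR adjusted p = 7.94e-06). The other 2 rises were Unc13b (1.10 ± 0.30) and Rims3 (0.94 ± 0.22), and the other 2 falls Stxbp5 (-0.72 ± 0.23) and Sv2b (-0.69 ± 0.20) (SE). The 4 falls became 7 without basal replicate 1 and 1 without basal replicate 3.

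**Figure D3:**
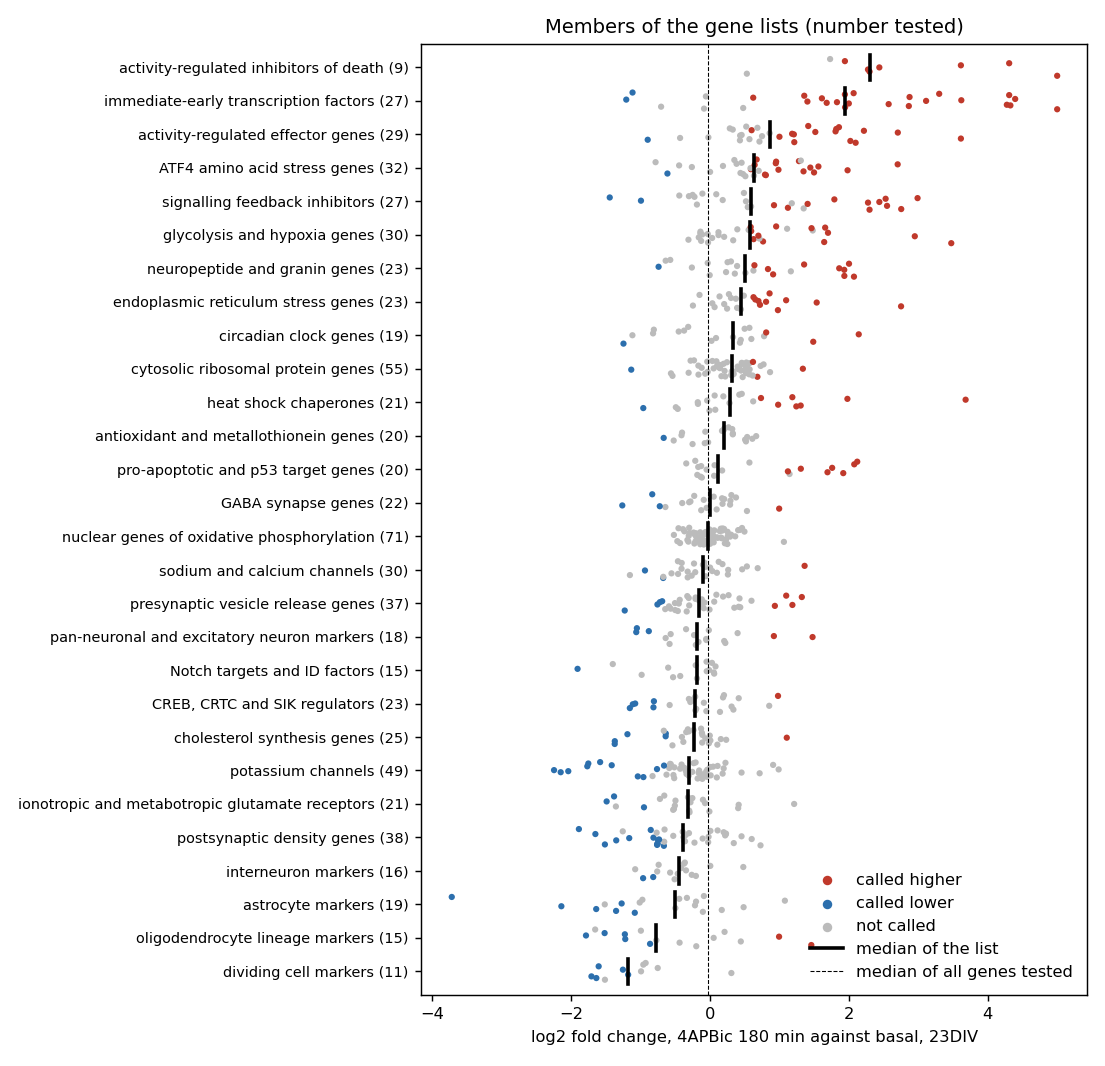
Log2 fold change of 4APBic at 180 min against basal (x axis) of each tested member of 28 gene lists (y axis, with the number tested), ordered by median. Red and blue points rose and fell, grey points were no DEG, thick bars are list medians and the dashed line is the median of all genes. Inhibitors of death (2.30) and immediate-early transcription factors (1.95) have the highest medians and dividing cell markers (-1.18) the lowest. Some genes appear in several lists, among them members of these top lists.

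Of 25 genes of cholesterol synthesis, 1 rose and 5 fell, with a median of -0.24. Insig2, which holds back the sterol sensor, rose (1.11 ± 0.19 (SE; edgeR adjusted p = 1.28e-04)). Fdps, which makes farnesyl diphosphate, had 49.8, 43.1 and 62.8 CPM in basal and 20.4 and 19.8 CPM in treated samples, a log2 fold change of -1.37 ± 0.24 (SE; edgeR adjusted p = 1.61e-04). Mvk and Lss, earlier and later enzymes of the path, also fell, at -1.19 ± 0.28 and -0.64 ± 0.21 (SE). The Lss call was lost in 8 of 16 alternative runs. The 5 falls became 2 without treated replicate 2 and 3 without basal replicate 3.

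Of 19 clock genes, 3 rose and 1 fell. Nfil3, a repressor of clock output, rose (2.14 ± 0.35 (SE; edgeR adjusted p = 1.03e-04)), as did Ciart (1.49 ± 0.43 (SE; edgeR adjusted p = 0.0173)) and Nr1d1 (0.81 ± 0.22 (SE; edgeR adjusted p = 0.0109)), both repressors in the clock. Arntl, the activator BMAL1 (chr7:113178471-113314126), had 19.7, 34.5 and 26.7 CPM in basal and 11.8 and 10.9 CPM in treated samples, a log2 fold change of -1.24 ± 0.25 (SE; edgeR adjusted p = 0.00101). Of 15 Notch targets and ID factors, Id3 alone was a DEG (-1.91 ± 0.50 (SE; edgeR adjusted p = 0.00924)), and the list median was -0.19. Of 55 ribosomal protein genes, 3 rose and 1 fell, among them Rpl9 and Rpl13, which rose, and Rpl5, which fell, at 1.34 ± 0.44, 0.68 ± 0.17 and -1.13 ± 0.28 (SE), with a median of 0.32. These genes have many processed copies, so the assignment of their reads is uncertain, and the count of rises was 1 without basal replicate 2 or treated replicate 2 and 9 without basal replicate 1.

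Markers were compared to see which cells the samples held. In bulk RNA, fewer cells of a type and less RNA per cell cannot be told apart. The summed level of 18 neuronal markers was 5239 to 6052 CPM in basal and 5018 and 5320.5 CPM in treated samples, and their median log2 fold change was -0.18. Nefl and Nefm, neurofilament subunits, rose (1.48 ± 0.26 and 0.92 ± 0.22, SE), while Rbfox3, the nuclear marker NeuN, and Tubb3, neuronal tubulin, were among those that fell (-1.06 ± 0.24 and -1.05 ± 0.17, SE). Of 16 interneuron markers, 2 fell, the calcium-binding proteins Calb1 (-0.96 ± 0.18 (SE; edgeR adjusted p = 5.12e-04)) and Calb2 (-0.82 ± 0.23 (SE; edgeR adjusted p = 0.0124)), and the median was -0.44.

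Markers of glia and of dividing cells fell in part. Of 19 astrocyte markers, 6 fell, with a median of -0.50, and their sum was 8537 to 9434 CPM in basal and 5015 and 7441 CPM in treated samples. Gfap, the astrocyte filament (chr11:102887336-102897200), had 88.7, 137 and 64.3 CPM in basal and 11.8 and 33.1 CPM in treated samples, a log2 fold change of -2.14 ± 0.40 (SE; edgeR adjusted p = 3.89e-04). Slc25a18, a mitochondrial glutamate carrier of astrocytes (chr6:120773504-120794169), had 19.7, 68.3 and 46.8 CPM in basal and 1.29 and 5.97 CPM in treated samples, the largest fall among genes with an average log2 CPM of 3 or more (-3.72 ± 0.77 (SE; edgeR adjusted p = 0.00117)). The general astrocyte genes Aldh1l1 and Sox9 were no DEG, at -0.10 ± 0.27 and -0.09 ± 0.30 (SE). Without treated replicate 2, 1 astrocyte marker fell, and without treated replicate 3, 9 did.

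Of 15 oligodendrocyte lineage markers, 5 fell and 2 rose, with a median of -0.77, and the sum was 2577 to 3445 CPM in basal and 1230.2 and 1866 CPM in treated samples. Olig1, a lineage transcription factor (chr16:91269769-91271939), had 579.7, 551 and 581 CPM in basal and 109 and 224 CPM in treated samples, a log2 fold change of -1.78 ± 0.22 (SE; edgeR adjusted p = 2.53e-06). Pdgfra, of precursors, had 160.4, 253 and 170.2 CPM in basal and 53.1 and 83.6 CPM in treated samples, a log2 fold change of -1.52 ± 0.36 (SE; edgeR adjusted p = 0.00451). The myelin genes Mbp and Cldn11 had the opposite sign, at 1.00 ± 0.34 and 1.46 ± 0.43 (SE), with the Mbp call lost whichever sample was left out. The rises numbered 0 without basal replicate 1, basal replicate 2 or treated replicate 2. Of 11 dividing cell markers, 5 fell, among them Ccnb2, Ccnb1, Rrm2 and Mki67 (-1.71 ± 0.50, -1.64 ± 0.43, -1.60 ± 0.40 and -1.25 ± 0.39, SE), and the sum was 225 to 369.8 CPM in basal and 84.7 and 155 CPM in treated samples. Without treated replicate 2, 1 oligodendrocyte lineage marker fell and 0 dividing cell markers by edgeR, where 3 had an unadjusted p under 0.05, and without basal replicate 1, 3 dividing cell markers did. The glial sums were lowest in treated replicate 2, and their part in the lower values of other genes was not tested.

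Microglia and vascular cells were near the limit of detection. Of 14 microglia markers in the file, 4 were tested, and the summed level was 12.3 to 18.8 CPM in basal and 28.8 and 29.3 CPM in treated samples. Cx3cr1 had 4, 0 and 0 counts in the basal samples and 33 and 19 counts in the treated samples, and Aif1 had 19, 18 and 36 and 38 and 34 counts. Both were called higher (edgeR adjusted p = 0.00764 and 0.0198), but no microglia marker was called higher when treated replicate 2 or 3 was left out, and 2 of the 14 markers were at 0 in all 5 samples. Of 13 vascular and fibroblast markers in the file, 3 were tested and 0 were DEG by edgeR or DESeq2, nor was any at an unadjusted edgeR p under 0.05, with sums of 18.2 to 34.4 CPM in basal and 19.3 and 22.2 CPM in treated samples. The cultures came from embryos of mixed sex, and both Xist and the Y-linked Ddx3y were higher in treated samples, with log2 fold changes of 0.75 ± 0.16 and 0.75 ± 0.24 (SE; edgeR adjusted p = 0.0018 and 0.0336).

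Other genes among the 15 largest rises belong to none of the groups above. Emp1, an epithelial membrane protein (chr6:135362550-135383173), had 4.15, 0 and 1.22 CPM in basal and 55.3 and 33.1 CPM in treated samples, a log2 fold change of 4.64 ± 0.80 (SE; edgeR adjusted p = 1.77e-04). Krt6a, a keratin, had 3.29, 2.50 and 2.21 CPM in basal and 61.9 and 46.7 CPM in treated samples, a log2 fold change of 4.35 ± 0.57 (SE; edgeR adjusted p = 4.36e-06). Adamts1, a secreted metalloprotease, and Tgif1, a homeobox repressor, rose by log2 fold changes of 3.32 ± 0.34 and 3.31 ± 0.56, and Car6, a secreted carbonic anhydrase, by 3.25 ± 0.67 (SE; edgeR adjusted p = 9.36e-08, 1.28e-04 and 0.00114). In Adamts1, Tgif1 and Car6, as in every gene of this set by its rule, the groups did not overlap.

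Among the 15 largest falls were Srgn, a proteoglycan core protein, with 3.80, 46.1 and 8.85 CPM in basal and 2.58 and 1.90 CPM in treated samples (log2 fold change -3.08 ± 1.05 (SE; edgeR adjusted p = 0.0419)), and Tgm3, a transglutaminase, with 75.04, 237 and 154 CPM in basal and 23.2 and 14.9 CPM in treated samples (log2 fold change -3.00 ± 0.49 (SE; edgeR adjusted p = 8.71e-05)). The Srgn call was lost in 8 of 16 alternative runs. A2m, the protease inhibitor alpha-2-macroglobulin, fell to 3.68 and 9.49 CPM from 25.8, 53.8 and 38.3 CPM (log2 fold change -2.62 ± 0.59 (SE; edgeR adjusted p = 0.00257)). Rasal1, a GTPase-activating protein for Ras, and Ipcef1, which interacts with cytohesin exchange factors, fell by 2.21 and 2.36 on the log2 scale (edgeR adjusted p = 2.56e-04 and 0.00308). Smaller or less characterized members were 4930429B21Rik (-2.89 ± 0.69), Zfp324 (-2.55 ± 0.57), Nwd1 (-2.48 ± 0.49), Tmem121b (-2.32 ± 0.28) and Inka2 (-2.31 ± 0.38) (SE). H3c15, a histone H3 gene (-2.86 ± 0.51), and Hba-a1, an alpha globin gene (-2.17 ± 0.47), have near-identical copies, so their values are uncertain.

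The 3′ counts also allow the ends of a gene to be compared. Of 20851 transcript ends tested, 1688 rose and 1488 fell, which is 15.2% of them. In 4 of 4907 genes with at least 2 tested ends, 1 end rose and another fell. Kcnmb4, a subunit of calcium-activated potassium channels, had a main end with 513, 538 and 911 counts in basal and 304 and 241 counts in treated samples (log2 fold change -0.61 ± 0.18, SE; edgeR adjusted p = 0.0169). Its other end had 26, 11 and 23 counts in basal and 79 and 33 counts in treated samples (log2 fold change 2.02 ± 0.48, SE; edgeR adjusted p = 0.00356). In Kcnmb4 the end that rose remained the minor one in each sample.

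Snx12, a sorting nexin, had 329, 401 and 735 counts in basal and 146 and 191 counts in treated samples at one end (log2 fold change -0.80 ± 0.27, SE; edgeR adjusted p = 0.0347), and 63, 35 and 98 counts in basal and 187 and 91 counts in treated samples at another (1.70 ± 0.34, SE; edgeR adjusted p = 8.00e-04). In Snx12 treated replicate 2 therefore had more counts on the end that rose, which held fewer counts in every basal sample. Grm7 fell at its main end, with 238, 270 and 360 counts in basal and 62 and 82 counts in treated samples (log2 fold change -1.34 ± 0.24, SE; edgeR adjusted p = 2.60e-04), and rose at another, with 94, 41 and 80 counts in basal and 111 and 108 counts in treated samples (1.23 ± 0.42, SE; edgeR adjusted p = 0.0398). Atxn7l1 fell at one end (-1.65 ± 0.34, SE; edgeR adjusted p = 0.0011) and rose at another (1.22 ± 0.28, SE; edgeR adjusted p = 0.00244). The 4 genes were picked by this opposite movement, and several ends of these genes had nearly the same counts as others of the gene and are not independent.

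Genes that rose had a shorter median span on the genome than genes that fell. It was 17.7 kb for rises, 29.4 kb for falls and 25.3 kb for all tested genes. In 5 groups of the tested genes, equal in size and ordered by span, with median spans of 4.51, 12.8, 25.3, 51.1 and 147 kb, the share that rose was 10%, 8.81%, 7.58%, 6.26% and 4.30%. The share that fell was 6.38%, 6.43%, 5.87%, 6.73% and 8.81%, and the median log2 fold change went from 0.03 in the group with the shortest span to -0.13 in the longest. Genes are not independent replicates, so these shares are a description, given without a test.

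**Figure D4:**
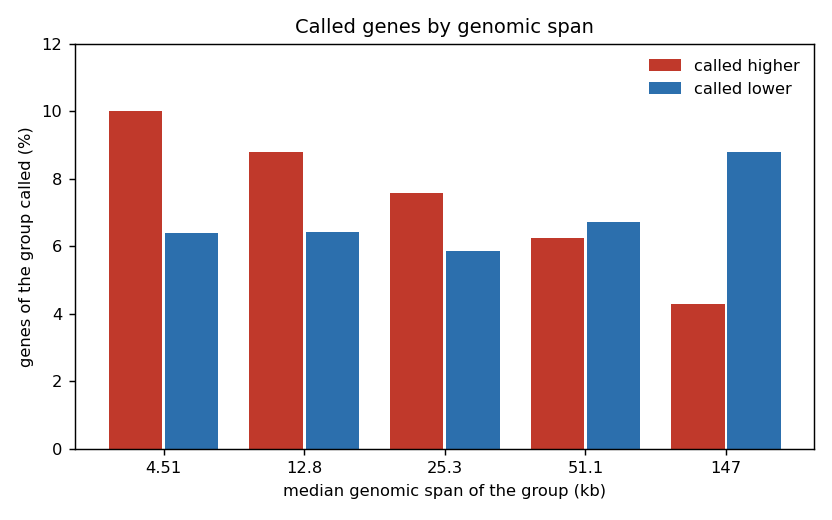
Percentage of tested genes that rose (red) and fell (blue) (y axis) in 5 equal groups of genes ordered by genomic span (x axis, median span in kb). The share that rose goes from 10% in the shortest to 4.30% in the longest group, and the share that fell is highest in the longest, at 8.81%.

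Time was compared at 23DIV with the 2 samples taken 15 min after the same drugs. At 180 min, 705 genes were higher and 729 lower than at 15 min, which is 12.2% of the tested genes, and both comparisons use the 180 min samples. These 1434 genes became 506 without treated replicate 2 and 674 without replicate 1 at 15 min. The largest differences on the higher side were Ptx3, Atf3, Car6 and Tgif1, besides Duox2. They were picked among genes with an average log2 CPM of 3 or more whose groups did not overlap. Atf3 had 13.7 and 16.1 CPM at 15 min and 562 and 427 CPM at 180 min, a log2 difference of 5.03 ± 0.71 (SE; edgeR adjusted p = 3.01e-05). Tgif1 had 5.14 and 0.343 CPM at 15 min and 59.9 and 55.3 CPM at 180 min, a log2 difference of 4.65 ± 0.82 (SE; edgeR adjusted p = 3.48e-04). Ptx3, a secreted pentraxin, had 0 and 1 counts at 15 min and 79 and 25 counts at 180 min. Duox2, an NADPH oxidase, had 0 counts in both samples at 15 min and 220 and 49 counts at 180 min, at least 19.6-fold higher when 3 counts per library are taken as the floor. Against basal, Duox2 gave 57, 0 and 0 counts in the 3 samples, so it was high in 1 basal sample too.

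The lower side at 180 min held Srgn (-3.46), Slc25a18 (-3.41), Hba-a1 (-3.08), A2m (-2.91) and Zfp324 (-2.90) on the log2 scale. Some immediate-early genes were already up at 15 min: the log2 fold change against basal at 15 min was 2.01 ± 0.33 for Fos, 1.86 ± 0.33 for Npas4 and 1.98 ± 0.36 for Arc, against 4.33, 4.31 and 2.10 at 180 min (SE). Fos was higher at 180 than at 15 min (2.31 ± 0.34 (SE; edgeR adjusted p = 5.07e-05)). Arc differed by 0.12 ± 0.39 (SE; edgeR adjusted p = 0.875), and Inhba by 4.30 ± 0.92 (SE; edgeR adjusted p = 0.00225).

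The other stimulus given for 180 min at 23DIV was depolarization with 55 mM KCl, in 3 samples. Between the 2 stimuli, 33 genes were higher and 29 lower with 4APBic, which is 0.528% of the tested genes. Pim1 had 7.40, 17.5 and 26.7 CPM with KCl and 95.2 and 69.7 CPM with 4APBic, a log2 difference of 2.28 ± 0.51 (SE; edgeR adjusted p = 0.0293). Egr4, an EGR factor of neurons, had 42.4, 76.01 and 90.6 CPM with KCl and 325 and 166 CPM with 4APBic, a log2 difference of 1.82 ± 0.38 (SE; edgeR adjusted p = 0.0178). Otud1, a deubiquitinase, had 107, 201 and 214 CPM with KCl and 812 and 559 CPM with 4APBic (1.98 ± 0.27 (SE; edgeR adjusted p = 1.96e-04)). In Pim1, Egr4 and Otud1 both 4APBic samples lay above all KCl samples, which the rule that picked these genes required. KCl replicate 1 was the lowest in each.

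Gm13889, a gene without an assigned role, differed by 2.03 ± 0.25 and Rasip1, a Ras-interacting protein of vessels, by 2.15 ± 0.43 (SE; edgeR adjusted p = 4.95e-05 and 0.0147). On the lower side, Arntl had 26.5, 32.98 and 28.1 CPM with KCl and 11.8 and 10.9 CPM with 4APBic (-1.36 ± 0.26 (SE; edgeR adjusted p = 0.00855)), and Kcnh3 had 60.7, 20.7 and 30.4 CPM and 11.4 and 18.2 CPM (-1.35 ± 0.31 (SE; edgeR adjusted p = 0.0367)). Gask1b (-1.91 ± 0.41), Hdac7, a histone deacetylase (-1.53 ± 0.33), and Ncoa5, a nuclear receptor coactivator (-1.43 ± 0.24), were the other large ones (SE). Of the immediate-early transcription factors, 5 of 27 were higher with 4APBic than with KCl, and of the effector genes 4 of 29. Against basal, KCl at 180 min gave 350 rises and 224 falls among 11746 tested genes. Rises with KCl included 14 of 32 ATF4 genes and 3 of 23 genes of endoplasmic reticulum stress. They also included 5 of 21 heat shock chaperones and 7 of 30 genes of glucose use and low oxygen. Between the 2 stimuli, edgeR called 1 heat shock chaperone and 0 genes of the other 3 lists. The count of 62 became 6 without treated replicate 2, 16 without KCl replicate 1 and 100 without KCl replicate 2, and 0 with only the 5 compared samples in the edgeR fit, where 1464 genes had an unadjusted p under 0.05. The summed astrocyte level with KCl was 6157 to 10182 CPM and the oligodendrocyte level 1412 to 1860.1 CPM.

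Maturation was addressed by the same drugs and time at 7DIV, with 3 treated and 3 basal samples. No gene was a DEG at 7DIV by edgeR or DESeq2, where by edgeR 701 genes had an unadjusted p under 0.05. The difference of the response between the stages was tested directly and passed an adjusted p of 0.05 in 582 genes, 4.95% of those tested, with 303 higher and 279 lower at 23DIV. The 582 became 139 without treated replicate 2, 342 without basal replicate 2, 323 without basal replicate 3 and 899 without basal replicate 1 at 23DIV, and 366 without treated replicate 3 and 382 without basal replicate 2 at 7DIV. Of the 27 immediate-early transcription factors 18 had a higher response at 23DIV, of the 9 inhibitors of death 7, and of the 29 effector genes 8. Npas4 had 287, 473 and 443 CPM in basal and 556, 662 and 466 CPM in treated samples at 7DIV, with all 3 basal values above those at 23DIV and a log2 fold change that was not past the threshold (0.49 ± 0.30, SE). Hk2, Ddit3 and Klf4 had log2 fold changes of 1.49 ± 0.84, 0.68 ± 0.33 and 0.84 ± 0.62 at 7DIV (SE), and the difference from 23DIV gave an edgeR adjusted p of 0.496, 0.1 and 0.0165. Among lower genes, the difference in response was -1.43 ± 0.38 (SE; edgeR adjusted p = 0.0257) for Nrgn and -2.51 ± 0.59 (SE; edgeR adjusted p = 0.0123) for Gfap.

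Bicuculline without 4-aminopyridine was given for 180 min in the second experiment, to neurons labelled 21DIV (2 treated and 3 basal samples of its own). There 83 genes rose and 9 fell among 12027 tested, or 0.765%. Of the 842 genes that rose with 4APBic and were tested in both, 59 also rose with bicuculline alone, which is 7.01% of the first list and 71.1% of the second. The median log2 fold change of those 842 genes was 1.05 with 4APBic, by which they were picked, and 0.05 with bicuculline alone. Of the 842, 57.4% had a positive value with bicuculline alone, against 48.2% of all genes tested in both. For the 790 genes that fell with 4APBic the medians were -0.99 and 0.01, and 3 of the 790 were among the 9 that fell with bicuculline alone. Libraries, ages, drugs and experiment differ together between these comparisons and cannot be told apart.

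Values for single genes show where these differed. Arc rose by 3.19 ± 0.17 with bicuculline alone and 2.10 ± 0.35 with 4APBic, and Egr4 by 2.73 ± 0.16 and 2.86 ± 0.39 (SE). Bdnf was at 1.15 ± 0.18 and 1.21 ± 0.25, and Nr4a1 at 2.14 ± 0.20 and 1.94 ± 0.28 (SE). The stress genes Hspa1a, Adm, Hk2 and Ddit3 had log2 fold changes of 0.38, 0.48, 0.37 and -0.00 with bicuculline alone, against 3.68, 3.47, 2.95 and 1.98 with 4APBic. The lists that hold these genes also had rises with KCl at 180 min and 23DIV, as given above. Gfap, Olig1, Nrgn and Kcnh3 were at 0.41, 0.06, 0.22 and 0.39 with bicuculline alone. No test across the experiments was made, since the experiments were normalized apart.

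**Figure D5:**
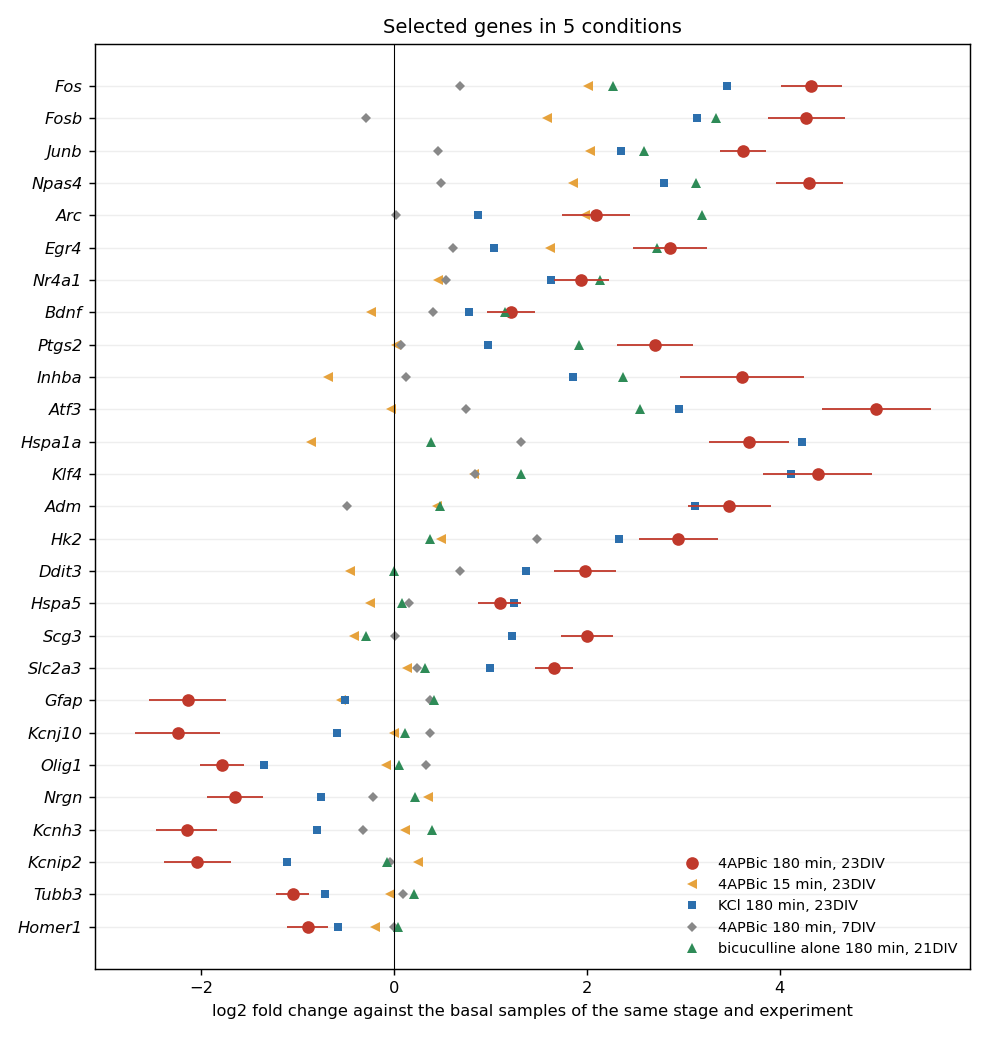
Log2 fold change against the basal samples of the same stage and experiment (x axis) of 27 genes (y axis) in 5 conditions, with SE bars for 4APBic at 180 min and 23DIV only. Bdnf lies at 1.21 with 4APBic and 1.15 with bicuculline alone, Arc at 2.10 and 3.19, while Hk2 lies at 2.95 and 0.37.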

How the data were processed

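RNA of primary mouse neurons was sequenced as CEL-Seq2 3′ libraries. Per the labels and the study's methods, STAR alignment to mm10 was followed by the End Sequence Analysis Toolkit (ESAT), and the deposited values are whole-number counts per RefSeq transcript, not normalized. Whether reads were collapsed by molecular identifier is not given in the sources used here, so a floor of 3 counts covers counting error only. In the maturation experiment 78905 of 97700 transcripts (80.8%) matched a symbol in RefSeq's GRCm38.p6 annotation, and in the stimuli experiment 78229 of 96722. Unmatched transcripts, with 18.5% and 19.2% of counts, were left out. Because counts repeat over transcripts with a common 3′ end, the transcript with most counts stood for its gene, and transcripts with the same counts in every sample were 1 end.

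The tested genes exceeded 5 CPM in 2 or more samples and were normalized by TMM and tested with edgeR 4.0.16 (R 4.3.3), quasi-likelihood, in 1 fit over 28 samples. Standard errors are the log2 fold change divided by the root of F. DESeq2 1.42.0 was an alternative. Summaries and figures were made in Python 3.11.15 with pandas 2.3.3, matplotlib 3.10.9, numpy 2.4.6 and scipy 1.17.1, and the tests were run on simulated data. The deviations of same-numbered treated and basal samples had r of 0.00064 for replicate 2 and 0.0066 for replicate 3. The deviations of the 2 treated samples mirror each other, so these values cannot decide whether samples were paired.

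Named genes are first the 15 largest rises and falls with an average log2 CPM of 3 or more whose groups did not overlap. The same rule gave 5 in each direction of each other comparison. The rest are the 4 largest in each list and direction, 8 activity genes, genes whose ends moved apart, and members described as no DEG. Genes set side by side across conditions were chosen from these. The members and the 31 lists were chosen with earlier results of these data known, and several genes are in more than 1 list. Alternatives were the likelihood ratio test, DESeq2, RLE factors, no filter, filterByExpr, thinned counts, counts summed over transcripts, fewer samples in the fit, a replicate block, each sample left out, and, chosen after seeing the data, edgeR's newer quasi-likelihood method. A few named genes are not reported here.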

Additional observations from a re-analysis of the deposited data

Results flagged for a closer look

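The response to 4APBic at 180 min differed between 23DIV and 7DIV by a direct test of the difference (edgeR quasi-likelihood, adjusted p under 0.05) in 582 genes. The 10 named below are the 5 largest differences in each direction among a part of these. That part had an average log2 CPM of 3 or more and treated and basal samples at 23DIV that did not overlap. Emp1 had a difference of 4.77 ± 1.09 (SE; edgeR adjusted p = 0.0107) on the log2 scale, with 11.8, 12.9 and 11.6 CPM in basal and 11.3, 12.9 and 8.92 CPM in treated samples at 7DIV. Fosb differed by 4.56 ± 0.53 (SE; edgeR adjusted p = 5.41e-06), with 175, 57.7 and 46.9 CPM in basal and 80.3, 90.8 and 55.7 CPM in treated samples at 7DIV. Atf3 differed by 4.25 ± 0.92 (SE; edgeR adjusted p = 0.00716), Adm by 3.96 ± 1.14 (SE; edgeR adjusted p = 0.0397) and Npas4 by 3.82 ± 0.45 (SE; edgeR adjusted p = 5.41e-06).

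A2m differed by -3.74 ± 0.86 (SE; edgeR adjusted p = 0.0111), with 3.32, 3.68 and 5.42 CPM in basal and 14.01, 6.45 and 7.85 CPM in treated samples at 7DIV, below its basal level at 23DIV. Tgm3 differed by -3.50 ± 0.65 (SE; edgeR adjusted p = 0.00179), 4930429B21Rik by -3.67 ± 0.89 (SE; edgeR adjusted p = 0.0148), Tmem255b by -3.51 ± 0.96 (SE; edgeR adjusted p = 0.03) and Ipcef1 by -3.35 ± 0.81 (SE; edgeR adjusted p = 0.0144). Tmem255b had 3, 0 and 3 counts in the 7DIV basal samples, and Ipcef1 had 2, 5 and 15. Adm, named above, had 1, 5 and 8 counts in basal and 3, 5 and 4 counts in treated samples at 7DIV. Responses at 7DIV are therefore poorly measured for these genes. The genes were picked for the size of this difference.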

How the results depend on the processing

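The number of DEG at 180 min was 1672 and lay between 1269 and 1946 under 10 alternatives that kept all samples of the comparison, and at 2244 with edgeR's newer method, chosen after seeing the data. With each sample left out it lay between 674 and 1991. The comparison with 15 min (1434) lay between 506 and 1103 with a sample left out. The comparison with KCl (62) moved most: 171 with the likelihood ratio test, 138 with DESeq2, 267 with no filter, 32 with summed transcripts, 0 with the compared samples only, 8 with the 23DIV samples only, 174 with the newer method, and between 6 and 100 with a sample left out. The stage difference (582) became 300 with the replicate block and between 139 and 899 with a sample left out. Bicuculline alone (92) became 55 with summed transcripts and between 65 and 99 with a sample left out. Transcript ends (3176) lay between 1420 and 3865, and genes with opposite ends were 2 with the compared samples only and between 1 and 5 with a sample left out. Grm7 reversed to 0.21 with summed transcripts. The causes were not tested.

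The replicate block gave 1477 DEG at 180 min, 52 against KCl and 2841 ends, and treated and basal samples share only a number. No paired analysis was possible because groups share fewer than 2 numbers in the comparison with 15 min and with bicuculline alone. Of 149 named genes called, 81 were called under every alternative and 84 with each sample left out. With 2 treated samples, 1 library decides many calls.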
